A study of Mus musculus with 4 samples.

Results

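Genes that the tumour suppressor p53 switches on were followed here through the embryonic cerebellum, out of 32285 genes counted: Cdkn1a, Phlda3, Ccng1, Mdm2, Bax, Bbc3, Trp53inp1, Eda2r, Sesn2 and Plk2. These 10 genes were taken as a named list and read one by one in 4 classes of cells. The libraries are 10x Genomics 3′ single-cell RNA libraries of tdTomato-positive cells sorted from mouse cerebella at E14.5 (embryonic stage). Every embryo carried Atoh1-Cre/+ and R26LSL-tdT/+, so that cells with a history of the rhombic lip gene Atoh1 express the red reporter tdTomato. The 2 control libraries have no further allele, and the 2 libraries of the conditional knockout (En1/2 CKO) add En1lox/lox and En2lox/lox, so that the same Cre removes the homeobox genes En1 and En2 in those cells only. Cerebella of several embryos were pooled for a library, and the title of the study names survival of excitatory cerebellar nuclei neurons as its question. Embryos cannot be told apart within a library, so that the p-values of CKO against control below measure the spread between these 4 pooled libraries. Comparisons between cell classes used the library as a block, so that their p-values measure how class differences vary from library to library.

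p53, encoded by Trp53, is kept scarce in healthy cells by Mdm2, an E3 ubiquitin ligase that p53 itself induces. When DNA damage, ribosome defects or loss of trophic support stabilize p53, it induces genes of cell cycle control (Cdkn1a, Ccng1, Plk2). It also induces genes that open mitochondria to apoptosis (Bax, Bbc3) and genes of the antioxidant and nutrient response (Sesn2, Trp53inp1). Further targets are a brake on Akt signalling (Phlda3) and a death receptor of the TNF family (Eda2r). Several of them also have inputs that do not need p53: Cdkn1a is known as a cell cycle exit gene of differentiating neurons, and Plk2 as an activity-induced kinase of neurons. At this age the Atoh1 lineage holds dividing granule cell precursors, their first postmitotic progeny, and excitatory neurons of the cerebellar nuclei.

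The cells used had 500 genes or more, 1000 or more UMIs (unique molecular identifiers, the count of captured RNA molecules) and no more than 10% mitochondrial UMIs. Cells with more Pax6 than Meis2 UMIs were split into cycling cells (at least 2 UMIs over 6 cell cycle genes), Neurod1-positive non-cycling cells, and other non-cycling cells. Cells with more Meis2 than Pax6 UMIs formed the fourth class. Leaving out the genes that set the classes, 8 granule lineage markers summed to 1796 to 2554 CPM (counts per 1000000 UMIs of the class in a library) in the 3 Pax6 > Meis2 classes and to 1032 to 1893 CPM in Meis2 > Pax6 cells, so that the ranges overlapped. The 10 markers of excitatory nuclei neurons left without Meis2 summed to 2084 to 2835 CPM in Meis2 > Pax6 cells and to 749.6 to 1608 CPM in the others, with no overlap. Pax6, Meis2, Neurod1 and the 6 cell cycle genes set the classes and are not read as results. In all, 309 to 1266 cycling, 341 to 1007 Neurod1-positive, 219 to 705 other and 372 to 2322 Meis2 > Pax6 cells entered per library. Classes were set on raw UMIs, so that a call can depend on depth. Cycling cells had a median of 5042 and 2819 UMIs in the controls against 17463 and 12998 under CKO. Neurod1-positive cells had 3180 and 2594.5 against 7389 and 10453. Other cells had 2130.5 and 1701.5 against 2367 and 1842. The other class can thus hold shallow cells whose Neurod1 or cell cycle UMIs were missed.

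The libraries differed in depth. The control libraries held 21351661 and 14998150 UMIs and the CKO libraries 27138010 and 33709450. Kept cells had a median of 2734 and 2122 UMIs in the controls against 5352 and 5544 under CKO, and made up 40.3% to 71.5% of barcodes. Kept cells shared 1 to 6 barcodes between any pair of libraries. Xist, an RNA of female cells, stood at 0.606 and 2254 CPM in kept cells of the controls against 1392 and 438 CPM under CKO. The sex make-up of the pools thus likely differed within and between groups. Its part in the values below was not tested. En2 checks the labels: its level in Meis2 > Pax6 cells was 257 and 188 CPM in the controls against 46.8 and 43.8 CPM under CKO, and it was lower in CKO cells of all 4 classes (adjusted p from 0.00212 to 0.0177, edgeR). En1 was not lower by the test in any class (adjusted p from 0.619 to 0.905); which exons the counted 3′ ends cover was not tested. Haemoglobin RNA marked out control replicate 2, whose Meis2 > Pax6 cells held 3516 CPM of 7 erythroid genes against 4.5 to 53.4 CPM in the other libraries, and CKO replicate 1, whose other Pax6 > Meis2 cells held 12885 CPM.

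The clearest pattern among the 10 genes was between cell classes, and it was led by Cdkn1a, which encodes p21, an inhibitor of cyclin-dependent kinases (chr17:29090976-29100727, + strand, GRCm38). In Neurod1-positive cells Cdkn1a stood at 42.0 and 47.7 CPM in the controls against 57.7 and 43.0 CPM under CKO. In cycling cells it stood at 16.4 and 12.2 CPM in the controls against 15.7 and 16.7 CPM under CKO. Every library had its highest Cdkn1a level in Neurod1-positive cells, and the 4 values there did not overlap with those of any other class. Meis2 > Pax6 cells had 12.7 and 10.1 CPM in the controls against 6.34 and 6.18 CPM under CKO, and other Pax6 > Meis2 cells 10.0, 9.09, 16.8 and 8.92 CPM in the same order. The order of mean levels was Neurod1-positive (47.6 ± 7.17 CPM, SD, n = 4 libraries), cycling (15.3 ± 2.10), other (11.2 ± 3.74) and Meis2 > Pax6 cells (8.83 ± 3.16). The ranges of the last 3 classes overlapped with each other. Within each library, however, cycling cells were above Meis2 > Pax6 cells, a difference that was not tested directly.

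**Figure D1:**
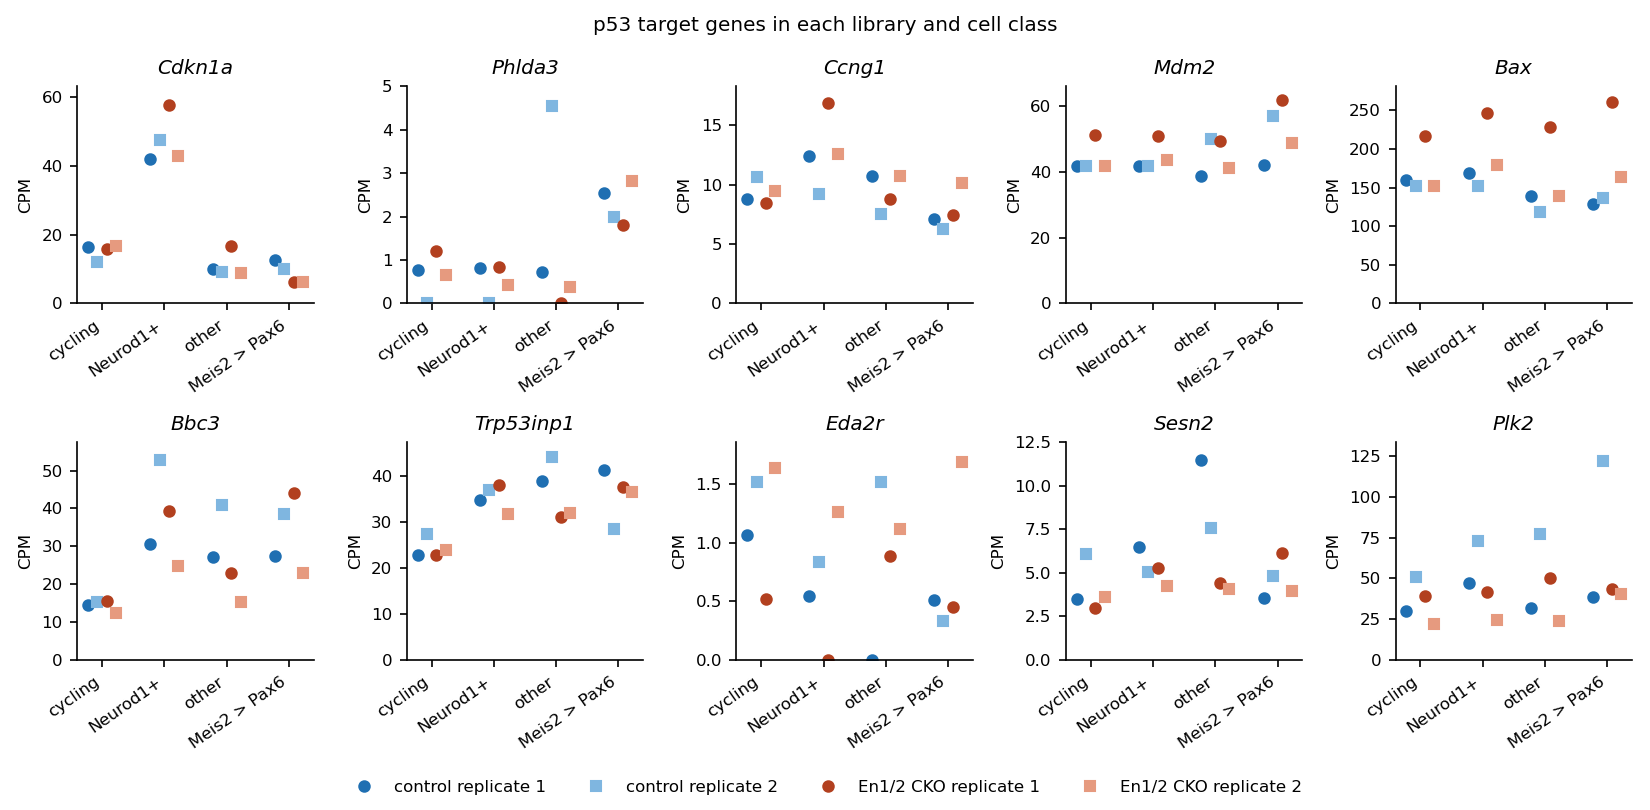
Level of each p53 target gene (y axis, CPM, from 0) in the 4 cell classes (x axis), with 1 point per library: control in blue, En1/2 CKO in red, circles for replicate 1 and squares for replicate 2. Cdkn1a is highest in Neurod1-positive cells in all 4 libraries (42.0 to 57.7 CPM), Bax is highest in CKO replicate 1 in every class, and Plk2 is highest in control replicate 2 in every class.

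In a fit of all 4 classes with the library as a block (edgeR's quasi-likelihood test, p-values adjusted by Benjamini and Hochberg over 12136 genes), Cdkn1a was lower in Meis2 > Pax6 than in Neurod1-positive cells by a log2 fold change of -2.52 (standard error 0.19, 95% interval -2.91 to -2.13, adjusted p = 2.84e-10). It was lower in cycling than in Neurod1-positive cells by -1.52 (standard error 0.14, interval -1.81 to -1.22, adjusted p = 9.79e-09). Restricted to cells of at least 4000 UMIs, the differences were -2.92 and -1.61. Cdkn1a passed the test in both comparisons under each of the 12 settings tried, at its smallest with every cell thinned to 1000 UMIs (-1.68 and -0.93).

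The stretches below are from the 300 bases around each start site (RefSeq windows on GRCm38.p6, 250 before and 50 after the start). They are shown because Cdkn1a, Ccng1, Mdm2 and Bax each carry a match to the p53 consensus decamer, the 10-base unit of which p53 binds a pair. A link between a match and the levels by class was not tested. The search used the exact consensus, which reads the same on both strands, and matches are in capitals. Windows were found for 9 of the 10 genes (12 windows), and 4 of these genes held a match; of all 32851 windows, 8.36% did.

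Cdkn1a: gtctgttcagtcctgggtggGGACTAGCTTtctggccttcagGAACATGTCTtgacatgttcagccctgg
Ccng1: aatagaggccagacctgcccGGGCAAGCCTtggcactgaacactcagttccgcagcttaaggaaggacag
Mdm2: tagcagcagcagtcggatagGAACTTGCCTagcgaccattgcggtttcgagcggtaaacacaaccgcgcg
Bax: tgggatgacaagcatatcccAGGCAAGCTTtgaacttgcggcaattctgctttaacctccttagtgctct

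These lie at chr17:29090886-29090955 (+ strand), chr11:40755422-40755491 (- strand), chr10:117710895-117710964 (- strand) and chr7:45467050-45467119 (- strand) in the order shown. The match begins 185 bases before the start in Ccng1, 186 in Mdm2 and 201 in Bax. Cdkn1a alone among the members held 2 matches in 1 window, the first of them 73 bases before the upstream of its listed starts; 0.359% of all windows held 2 or more. A match is a description of these letters, not a site of binding.

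Seen cell by cell, the Cdkn1a level went with Neurod1, a transcription factor of differentiating granule cells. Non-cycling Pax6 > Meis2 cells of at least 3000 UMIs were grouped by the Neurod1 UMIs left after thinning each cell to 3000 UMIs, and levels were taken over all UMIs of the cells. With 0 Neurod1 UMIs left after thinning, Cdkn1a stood at 13.1 and 9.59 CPM in the controls against 21.5 and 13.6 CPM under CKO (795 cells in all). This group can hold cells that had Neurod1 UMIs before thinning. With 4 or more Neurod1 UMIs Cdkn1a stood at 68.5 and 97.3 CPM in the controls against 108 and 79.8 CPM under CKO (336 cells), above every value of the group at 0. The steps between were ordered in 3 of 4 libraries; in control replicate 2, with 42 cells and 1 Cdkn1a UMI in the group of 1 Neurod1 UMI, the level there was 4.60 CPM. Mdm2 had overlapping ranges, at 22.4 to 46.4 CPM with 0 and 32.4 to 60.6 CPM with 4 or more Neurod1 UMIs. Ccng1 ran from 6.39 to 13.2 CPM at 0 and from 10.5 to 16.2 CPM at 4 or more, and Bbc3 from 15.5 to 57.5 and from 32.1 to 91.9 CPM, so that the ranges of both overlapped. Within each of the 4 libraries, however, Ccng1, Bbc3 and Bax were also higher at 4 or more Neurod1 UMIs than at 0. Bbc3 went from 25.5 to 32.7 and from 57.5 to 91.9 CPM in the controls, and from 28.2 to 49.5 and from 15.5 to 32.1 CPM under CKO. Bax went from 161 to 185 and from 147 to 184 CPM in the controls, and from 241 to 254 and from 176 to 196 CPM under CKO. The Ccng1 levels of control replicate 2 rest on 2 and 3 UMIs. Mdm2 was higher in 3 of 4 libraries. These groups are a description with no test, since Neurod1 also set the classes.

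**Figure D2:**
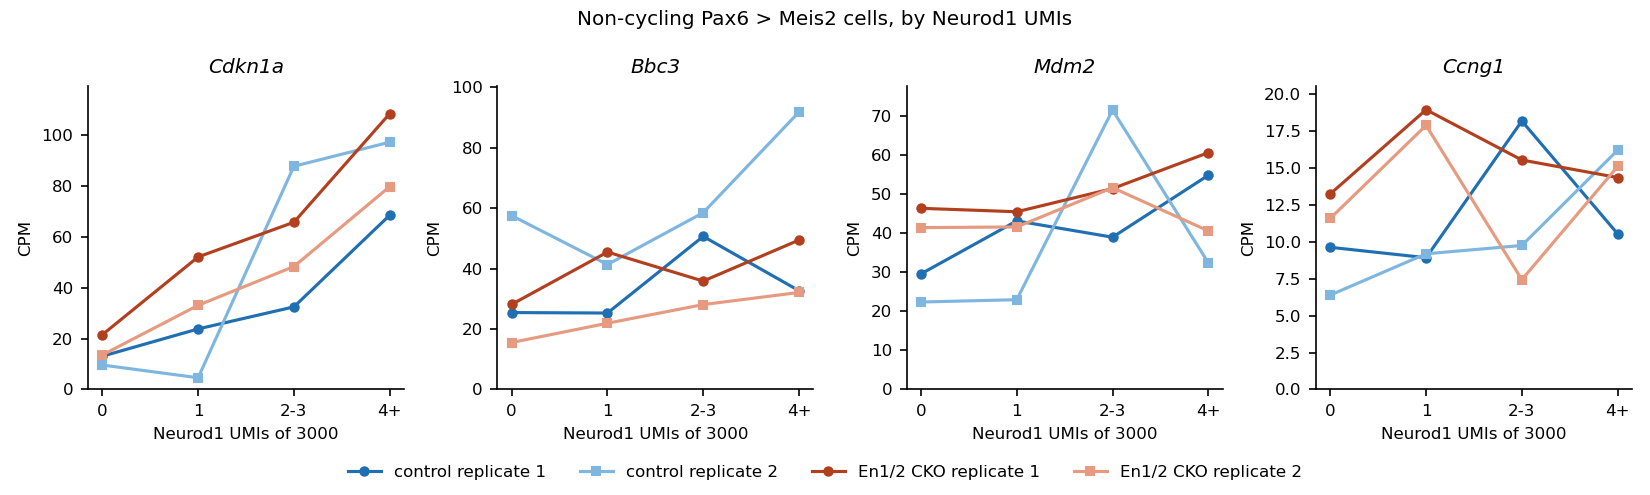
Level of Cdkn1a, Bbc3, Mdm2 and Ccng1 (y axis, CPM, from 0) in non-cycling Pax6 > Meis2 cells grouped by Neurod1 UMIs after thinning to 3000 UMIs (x axis: 0, 1, 2 to 3, 4 or more), with 1 line per library. Cdkn1a reaches 68.5 to 108 CPM at 4 or more Neurod1 UMIs from 9.59 to 21.5 CPM at 0, while the ranges of the other 3 genes overlap between these ends.

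By a rule of likeness over the 16 library-by-class values of log2(CPM + 1), the genes most like Cdkn1a among 9910 genes included Gap43 (Pearson r = 0.93) and Sept4 (0.91). Gap43 encodes a growth cone protein and Sept4 a septin. The 16 values come from 4 libraries, so that these correlations only describe them.

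Mdm2, the feedback inhibitor of p53 (chr10:117688875-117710758), did not separate the classes: its mean was 44.1 ± 4.68 CPM in cycling, 44.4 ± 4.28 in Neurod1-positive, 44.9 ± 5.71 in other and 52.5 ± 8.65 CPM in Meis2 > Pax6 cells (SD, n = 4), and all ranges overlapped. Against Neurod1-positive cells, the interval of its log2 difference was -0.054 to 0.34 for Meis2 > Pax6 cells and -0.15 to 0.21 for cycling cells, and neither passed the test (adjusted p = 0.239 and 0.884, edgeR). Without scaling factors Mdm2 was called higher in Meis2 > Pax6 cells (0.23, adjusted p = 0.04). The Cdkn1a differences given above lie outside these intervals of Mdm2.

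Of the 2 genes of the mitochondrial path to apoptosis, Bbc3 differed by class. Bbc3 encodes Puma, a BH3-only protein that frees Bax and Bak (chr7:16308393-16318205). In cycling cells it was at 14.4 and 15.2 CPM in the controls against 15.6 and 12.3 CPM under CKO, and in Neurod1-positive cells at 30.6, 52.7, 39.4 and 24.8 CPM in the same order. Cycling cells were below Neurod1-positive cells in 4 of 4 libraries, by a log2 fold change of -1.17 (standard error 0.13, interval -1.44 to -0.91, adjusted p = 1.14e-07, edgeR). Meis2 > Pax6 cells, at 27.5, 38.4, 44.1 and 23.0 CPM, did not differ from Neurod1-positive cells by the test (log2 difference -0.17, interval -0.45 to 0.10, adjusted p = 0.316). Bax itself, the pore-forming effector (chr7:45461697-45466898), was lower in Meis2 > Pax6 than in Neurod1-positive cells by a log2 fold change of -0.23 (standard error 0.08, adjusted p = 0.0323), a difference that was -0.078 with an adjusted p of 0.752 in cells of at least 4000 UMIs. Between cycling and Neurod1-positive cells its interval was -0.27 to 0.071.

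Ccng1, which encodes cyclin G1, a partner of the phosphatase PP2A (chr11:40748552-40755311), went with Cdkn1a at a smaller size. Its level was 12.5, 9.20, 16.9 and 12.5 CPM in Neurod1-positive cells of control replicates 1 and 2 and CKO replicates 1 and 2, and 7.12, 6.29, 7.47 and 10.1 CPM in Meis2 > Pax6 cells, lower in each library. The log2 fold change was -0.87 (standard error 0.19, adjusted p = 0.000857) for Meis2 > Pax6 and -0.51 (standard error 0.16, adjusted p = 0.011) for cycling cells against Neurod1-positive cells (edgeR). The second call was lost without CKO replicate 1 (-0.34, adjusted p = 0.173) and without cells holding UMIs of both Pax6 and Meis2 (-0.38, adjusted p = 0.127). Trp53inp1, which encodes a nuclear stress protein (chr4:11156431-11174379), was lower in cycling cells, at 22.8 to 27.4 CPM, than in Neurod1-positive cells, at 31.7 to 38.0 CPM, by a log2 fold change of -0.52 (standard error 0.11, adjusted p = 0.000461). Meis2 > Pax6 cells held 28.3 to 41.2 CPM of Trp53inp1 and did not pass the test (interval of the log2 difference -0.32 to 0.16).

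The remaining 4 members were not called between classes. Plk2, a Polo-like kinase (chr13:110395046-110400844), ranged from 22.0 to 50.9 CPM in cycling, 24.1 to 72.8 in Neurod1-positive, 23.8 to 77.2 in other and 38.7 to 122 CPM in Meis2 > Pax6 cells. Its highest level in every class came from control replicate 2. Plk2 was called higher in Meis2 > Pax6 than in Neurod1-positive cells with each cell thinned to 1000 UMIs (0.70, adjusted p = 0.0195), and lower in cycling cells without cells holding both Pax6 and Meis2 (-0.56, adjusted p = 0.0176). Sesn2, which encodes a stress-induced inhibitor of mTORC1 signalling (chr4:132492032-132510501), held 2.95 to 11.5 CPM, on 37 to 127 UMIs per class over all 4 libraries. Its gene body overlaps Gm12981 on the same strand over 6089 bases, so that reads of the pair may be split. Phlda3 (chr1:135766119-135769136) had 75 UMIs and Eda2r (chrX:97333840-97377216) 71 UMIs over all classes and libraries. Phlda3 passed the low-count filter in none of the 4 class-wise fits and Eda2r in 1 of them. With no low-count filter Phlda3 was called higher in Meis2 > Pax6 than in Neurod1-positive cells (1.67, adjusted p = 0.0373), on 30 against 10 UMIs.

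**Figure D3:**
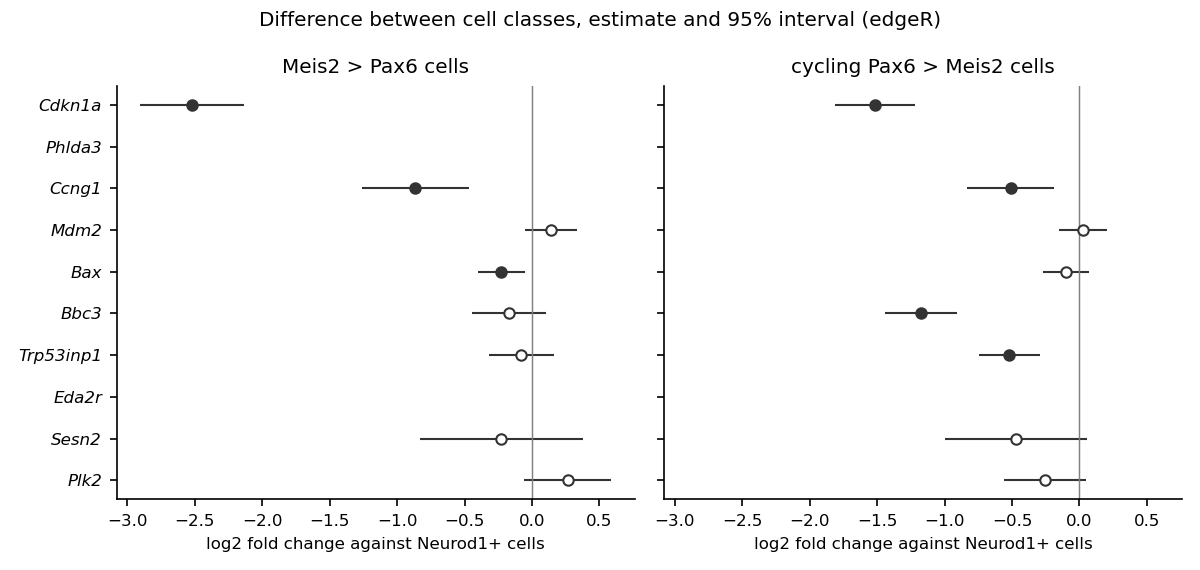
Log2 fold change of each gene (x axis) against Neurod1-positive cells in Meis2 > Pax6 cells (left) and cycling cells (right), points for the edgeR estimate over 4 libraries and bars for the 95% interval; filled points passed the adjusted threshold of 0.05, and Phlda3 and Eda2r were not tested. Cdkn1a lies farthest from 0, at -2.52 and -1.52, and Mdm2 lies at 0.14 and 0.025.

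In all, 3 of 8 tested members were lower in Meis2 > Pax6 cells (Cdkn1a, Ccng1, Bax) and none was higher, where 43.2% of all 12136 genes were called in either direction. Between cycling and Neurod1-positive cells, 4 of 8 were lower in the cycling cells (Cdkn1a, Bbc3, Trp53inp1, Ccng1), where 43.9% of all genes were called. These shares lie near the background of a comparison that changes much of the transcriptome. The median log2 fold change over the tested members was -0.20 and -0.49, against -0.018 and -0.014 over all genes.

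Trp53 itself parted from Cdkn1a in cycling cells. In Neurod1-positive cells it was at 86.1 and 60.2 CPM in the controls against 109.8 and 102 CPM under CKO. It was higher in cycling than in Neurod1-positive cells by a log2 fold change of 0.38 (standard error 0.09, adjusted p = 0.00104), where Cdkn1a was lower. It was lower in Meis2 > Pax6 than in Neurod1-positive cells by -0.57 (standard error 0.10, adjusted p = 4.12e-05, edgeR). Of a list of 18 genes for p53 and its regulators, 4 of 15 tested were higher and 4 lower in Meis2 > Pax6 than in Neurod1-positive cells, and 6 were higher and 1 lower in cycling cells. Of 32 other p53 targets, 25 were tested; 3 were higher and 10 lower in Meis2 > Pax6 cells (median log2 fold change -0.12), and 4 were higher and 8 lower in cycling cells (median -0.24). The BCL2 family, 12 of 13 genes tested, had 2 higher and 6 lower in Meis2 > Pax6 cells and 3 higher and 4 lower in cycling cells. Caspases and their regulators, 12 of 14 tested, had 0 higher and 3 lower in Meis2 > Pax6 cells but 5 higher and 1 lower in cycling cells. Each of these lists thus held genes called in both directions in at least 1 of the comparisons.

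CKO and control libraries were then compared within each class. None of the tested members passed the test in any of the 4 classes. The tested members numbered 9 in cycling, 8 in Neurod1-positive, 7 in other and 8 in Meis2 > Pax6 cells. Of all genes tested, 0.00766% were called in cycling cells (1 of 13052, En2), 0.026% in Neurod1-positive cells (3 of 11554), 0.0301% in other cells (3 of 9964) and 0.212% in Meis2 > Pax6 cells (25 of 11804), so a count of 0 members is close to the background. At an unadjusted p under 0.05 the members numbered 0, 2, 1 and 2 in that order, beside 5.24%, 13.0%, 8.38% and 14.7% of all genes. DESeq2 called 0 members in each class, with 0, 1, 0 and 1 at an unadjusted p under 0.05. The median log2 fold change over the tested members was 0.044, 0.20, 0.11 and 0.18, beside -0.0092, 0.0045, -0.0044 and -0.0082 over all genes. The CKO libraries were also the deeper ones, as given above. Their kept cells had a lower median mitochondrial share, 3.97% and 2.66% against 5.53% and 5.66% in the controls. With each cell thinned to 1000 UMIs and the classes kept, the member medians were -0.099, 0.34, -0.095 and -0.18 in the same order. Fewer members were tested there, 6, 6, 4 and 5. In cells of at least 4000 UMIs the medians were 0.036, 0.083, 0.14 and 0.18. At 5% mitochondrial UMIs or less they were 0.073, 0.070, -0.35 and 0.10. Beyond these settings the part of depth or mitochondrial share was not tested.

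Of the members tested in Neurod1-positive cells, Mdm2 had the smallest standard error. It stood at 41.7 and 41.8 CPM in the controls against 50.7 and 43.4 CPM under CKO, with a log2 fold change of 0.30 (standard error 0.21, 95% interval -0.16 to 0.76, adjusted p = 0.569, edgeR). Across Meis2 > Pax6 cells it stood at 42.2, 56.9, 61.8 and 48.9 CPM, the groups overlapped, and the interval was -0.36 to 0.72. In cycling cells Mdm2 was at 41.7 and 41.8 CPM in the controls against 51.2 and 41.9 CPM under CKO, with an interval of -0.21 to 0.73. In other Pax6 > Meis2 cells the log2 fold change was 0.11, with an interval of -0.50 to 0.72. In cells of at least 4000 UMIs of that class it was 0.74 (standard error 0.39, adjusted p = 0.692, edgeR). Mean levels there were 23.6 ± 12.1 CPM in the controls against 43.8 ± 0.55 CPM under CKO (SD), with 21 cells in control replicate 2. In Neurod1-positive cells of that depth it was 0.28 (standard error 0.22, adjusted p = 0.879, edgeR). These intervals speak of the average cell of a class.

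Bax was above 0 in the fits of all 4 classes. Its level in Meis2 > Pax6 cells was 129 and 136 CPM in the controls against 261 and 164 CPM under CKO, so that the groups did not overlap. The log2 fold change was 0.73 (standard error 0.26, interval 0.15 to 1.31, unadjusted p = 0.0189, adjusted p = 0.248, edgeR). In cells of at least 4000 UMIs it was 0.77 (adjusted p = 0.12). Bax was at 169 and 152 CPM in the controls against 247 and 179.6 CPM under CKO in Neurod1-positive cells (log2 fold change 0.53, adjusted p = 0.35). In cycling cells it was at 160.5 and 152 CPM against 217 and 153 CPM (0.35, adjusted p = 0.905), and in other cells at 139 and 118 CPM against 229 and 139 CPM (0.56, adjusted p = 0.606). CKO replicate 1 was the highest library in every class; without it the log2 fold change in Meis2 > Pax6 cells was 0.31, and without CKO replicate 2 it was 1.06 and passed the test (adjusted p = 0.0162). Without CKO replicate 1 it was 0.066 in cycling, 0.29 in Neurod1-positive and 0.16 in other cells, and leaving out CKO replicate 2 gave 0.60, 0.73 and 0.92.

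Among the 7 members tested in all 4 classes, Cdkn1a was the one whose sign in Meis2 > Pax6 cells was opposite to that in all 3 Pax6 > Meis2 classes. Its level of 12.7 and 10.1 CPM in control and 6.34 and 6.18 CPM in CKO Meis2 > Pax6 cells rests on 25, 61, 28 and 11 UMIs, and the groups did not overlap. The log2 fold change was -0.79 (standard error 0.36, interval -1.60 to 0.019, adjusted p = 0.349, edgeR). In cells of at least 4000 UMIs the levels were 5.11 and 11.6 CPM in the controls against 5.74 and 6.61 CPM under CKO, which overlapped, and the gene did not pass the low-count filter. In Neurod1-positive, cycling and other cells its log2 fold change was 0.30, 0.22 and 0.37, with adjusted p-values of 0.604, 0.926 and 0.912. The difference of the CKO effect between Meis2 > Pax6 and all Pax6 > Meis2 cells, tested as an interaction, was -0.94 on the log2 scale (standard error 0.32, unadjusted p = 0.0102, adjusted p = 0.566). No member passed that test, where 0.114% of all 13146 genes did, and Cdkn1a was the 1 member at an unadjusted p under 0.05, beside 5.64% of all genes.

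Plk2 was below 0 in the fits of all 4 classes. Its level in Meis2 > Pax6 cells was 38.7 CPM in control replicate 1 and 122 CPM in control replicate 2, against 43.2 and 40.5 CPM in the CKO libraries. The log2 fold change of -0.97 (standard error 0.43, unadjusted p = 0.0456, adjusted p = 0.331) thus rested on control replicate 2: without it the value was 0.22, and without control replicate 1 it was -1.54 and passed the test (adjusted p = 0.000637). It also passed with no low-count filter (-0.97, adjusted p = 0.00486). Its interaction, -0.28, became -0.71 and passed without control replicate 1 (adjusted p = 0.0157). In Neurod1-positive cells Plk2 was at 47.1 and 72.8 CPM in the controls against 41.6 and 24.1 CPM under CKO, with a log2 fold change of -0.73 (standard error 0.30, unadjusted p = 0.0364, adjusted p = 0.352). Leaving out control replicate 2 gave -0.40, CKO replicate 2 -0.38 and CKO replicate 1 -1.14. Control replicate 2 was also the library with the erythroid RNA and the highest Xist level given above. The part of either in the Plk2 values was not tested.

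Bbc3 was at 27.3 and 40.9 CPM in control and 23.0 and 15.2 CPM in CKO cells of the other Pax6 > Meis2 class, on 26 to 41 UMIs per library, and the groups did not overlap. The log2 fold change was -0.78 (standard error 0.36, unadjusted p = 0.0463, adjusted p = 0.594, edgeR). It was 0.026 in cycling, -0.21 in Neurod1-positive and 0.085 in Meis2 > Pax6 cells, where the groups overlapped. Ccng1 was at 7.12 and 6.29 CPM in control and 7.47 and 10.1 CPM in CKO Meis2 > Pax6 cells, with a log2 fold change of 0.40 (interval -0.46 to 1.26). Trp53inp1 ran from -0.31 in other cells to 0.17 in Meis2 > Pax6 cells on the log2 scale, and Sesn2 from -0.25 in cycling cells to 0.30 in Meis2 > Pax6 cells. Eda2r, tested in cycling cells only, had an interval of -1.55 to 1.65.

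**Figure D4:**
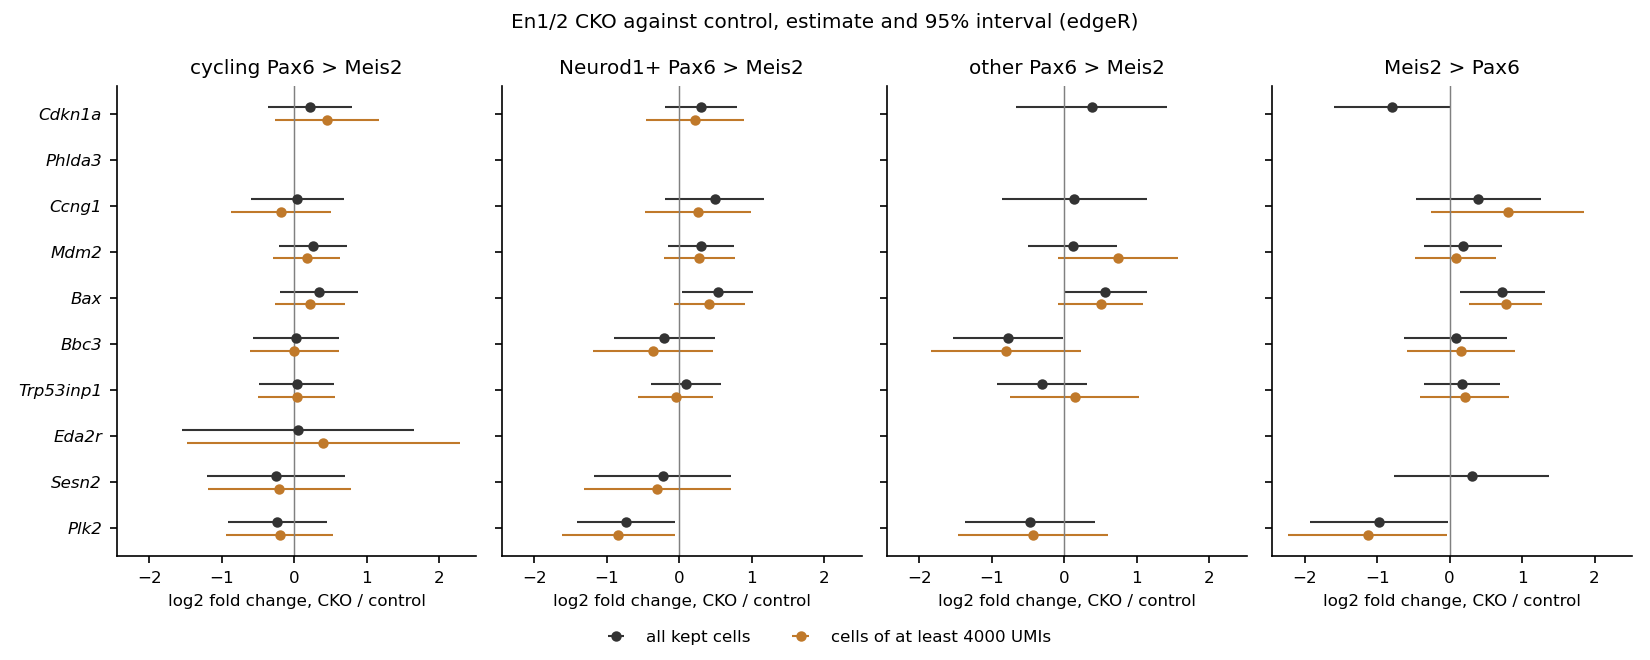
Log2 fold change of each gene in En1/2 CKO against control cells (x axis) in the 4 cell classes (panels), points for the edgeR estimate with 2 libraries per group and bars for the 95% interval, in all kept cells (dark) and in cells of at least 4000 UMIs (orange); a missing point did not pass the low-count filter. Bax lies above 0 in every panel, Plk2 below 0 in every panel, and Cdkn1a lies at -0.79 in Meis2 > Pax6 cells and above 0 in the other panels; none passed the adjusted threshold of 0.05.

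Control and CKO levels did not overlap for 1 of 9 members in cycling cells (Mdm2 higher), where the share was 39.1% of all genes tested. The count was 4 of 8 in Neurod1-positive cells (Ccng1, Mdm2 and Bax higher, Plk2 lower; 48.3% of all genes), 2 of 7 in other cells (Bbc3 and Trp53inp1 lower; 39.5%) and 3 of 8 in Meis2 > Pax6 cells (Ccng1 and Bax higher, Cdkn1a lower; 44.3%). These counts lie near or below the background. Other gene lists are given for Meis2 > Pax6 cells as a description only. The 6 cell cycle genes had a median log2 fold change of 1.25 (6 of 6 above 0). It was 0.48 over 10 granule lineage markers, Pax6 and Neurod1 among them (8 of 10 above 0). Over 11 excitatory nuclei markers, Meis2 among them, it was 0.18 (6 of 11 above 0). The 5 unipolar brush cell markers had -1.27 (1 of 5 above 0) and 5 GABAergic neuron markers -0.65 (0 of 5 above 0). The 5 erythroid genes had -7.57 (0 of 5 above 0). None of these was called in all kept cells. In cells of at least 4000 UMIs, 2 of the 5 GABAergic neuron markers were called, with a median log2 fold change of -1.86 over the 5. The part of these lists in the values of the members was not tested. With cycling cells left out, no member was called in Meis2 > Pax6 cells either.

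The wider lists gave no called gene in any CKO fit. This held for p53 and its regulators (14 to 16 tested per class), the other p53 targets (20 to 27), the BCL2 family (12 to 13), caspases and their regulators (10 to 13), neuronal survival signalling (8 to 10), the integrated stress response (7 to 9) and genes induced by tissue dissociation (11 to 12). In Meis2 > Pax6 cells the numbers at an unadjusted p under 0.05 were 3, 4, 2, 1, 2, 2 and 4 in that order, and in Neurod1-positive cells 3, 1, 5, 1, 1, 2 and 3. These counts stand beside the 14.7% and 13.0% of all genes given above. Trp53 was at 57.5 and 45.0 CPM in control and 81.0 and 73.6 CPM in CKO Meis2 > Pax6 cells, a log2 fold change of 0.66 (standard error 0.21, adjusted p = 0.198, edgeR). Its log2 fold change was 0.64 in Neurod1-positive, 0.82 in other and 0.39 in cycling cells (adjusted p = 0.304, 0.431 and 0.905, edgeR). The CKO level was above the control level in all 4 classes. In a class, 39.1% to 48.3% of all genes tested had no overlap between the groups, in either direction. The 4 classes come from the same 4 libraries and are not independent. In the interaction test, 1 excitatory nuclei marker, Nhlh2, was called higher in its CKO effect in Meis2 > Pax6 cells (1.20 on the log2 scale), and 5 haemoglobin genes were called lower.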

How the data were processed

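The deposited files hold UMI counts by gene and barcode that were not normalized; per the file headers they come from Cell Ranger 5.0.0, and mm10 is the build in the submitters' processing notes. Gene symbols are those of the files, and coordinates come from GENCODE M21 (32235 of 32285 gene IDs matched). The members and gene lists were chosen with earlier results of these data known. Named are all members, list genes called in an En1/2 CKO fit (at most 4 per list and fit), Trp53, En1, En2 and the 3 genes most like Cdkn1a, of which 1 is not reported here. Counts were summed per library and class, since cells are not replicates. edgeR 4.0.16 (R 4.3.3; TMM factors, filterByExpr, quasi-likelihood F test, two-sided, Benjamini-Hochberg threshold 0.05) fitted each class on 2 libraries per group; class comparisons and the interaction used the library as a block. CPM printed in the text are scaled by library totals without TMM factors. Summed counts of 4 libraries limit the precision. No doublet caller was run; an alternative leaves out the cells with most UMIs, 0.8% per 1000 kept cells. The fits were tested on simulated data. DESeq2 1.42.0 was an alternative. Figures used matplotlib 3.10.9.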

Additional observations from a re-analysis of the deposited data

How the results depend on the processing

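Each fit was repeated under 12 to 16 alternatives, and 484 of 558 member values kept direction and side of the threshold; the cause was not tested for the others. In Meis2 > Pax6 cells the number of members called in CKO rose from 0 to 1 with no low-count filter, and was 0 to 1 when 1 library was left out. That of the interaction was also 0 to 1, that of Meis2 > Pax6 against Neurod1-positive cells 2 to 3 and that of cycling against Neurod1-positive cells 3 to 4; the last fell to 2 with each cell thinned to 1000 UMIs, where Ccng1 did not pass the filter. Counts over all genes moved more: 0 to 160 in cycling, 1 to 326 in Neurod1-positive, 0 to 115 in other and 1 to 751 in Meis2 > Pax6 cells, 8 to 422 for the interaction, 1678 to 5343 and 2001 to 5343 between classes. Bax lost its call between Meis2 > Pax6 and Neurod1-positive cells in 8 settings.

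Some log2 values changed sign. In cycling cells these were, thinned, Cdkn1a -0.063, Bbc3 -1.22 and Trp53inp1 -0.13; without top-UMI cells, Cdkn1a -0.077, Bbc3 -0.15 and Trp53inp1 -0.069; without cells holding both Pax6 and Meis2, Bbc3 -0.11, Trp53inp1 -0.16 and Sesn2 0.39; at 4000 UMIs Ccng1 -0.18, at 5% mitochondrial UMIs Ccng1 -0.13, and by DESeq2 Eda2r -0.041. With no scaling factors, a setting added after seeing the data that moved the median of all genes from -0.0092 to -0.11 in cycling and from 0.0045 to -0.13 in Neurod1-positive cells, Ccng1 was -0.059, Bbc3 -0.079, Trp53inp1 -0.0696 and Eda2r -0.044 there, and Trp53inp1 -0.039 in Neurod1-positive cells. In Neurod1-positive cells Trp53inp1 was -0.051 at 4000 UMIs, -0.049 at 5% mitochondrial UMIs and -0.39 thinned, and Bbc3 0.36 thinned. In other cells Ccng1 was -0.28 without cells holding both genes, Mdm2 -0.11 thinned and Trp53inp1 0.14 at 4000 UMIs. In Meis2 > Pax6 cells Mdm2 was -0.18, Bbc3 -0.18 and Trp53inp1 -0.31 thinned, and Sesn2 -0.13 without cycling cells. Thinned, Bax was -0.15 and Plk2 0.18 in the interaction, and Trp53inp1 0.13 in cycling against Neurod1-positive cells.

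Leaving out a library leaves 1 in its group, which is assumed to vary like the other group. Doing so in turn gave, in cycling cells, -0.11 to 0.13 for Ccng1, -0.16 to 0.21 for Bbc3, -0.099 to 0.13 for Trp53inp1, -1.02 to 0.58 for Eda2r, -0.75 to 0.016 for Sesn2 and -0.71 to 0.14 for Plk2. In Neurod1-positive cells it gave -0.62 to 0.19 for Bbc3, -0.028 to 0.21 for Trp53inp1 and -0.36 to 0.018 for Sesn2. In other cells it gave -0.056 to 0.89 for Cdkn1a, -0.0021 to 0.44 for Ccng1, -0.12 to 0.32 for Mdm2 and -1.09 to 0.26 for Plk2. In Meis2 > Pax6 cells it gave -0.049 to 0.50 for Mdm2, -0.55 to 0.45 for Bbc3, -0.053 to 0.39 for Trp53inp1 and -1.54 to 0.22 for Plk2, and in the interaction -0.71 to 0.27 for Plk2.

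Both groups use the same replicate numbers, but same-numbered libraries did not deviate together (r = -0.086, -0.24, -0.16 and -0.21 across genes in cycling, Neurod1-positive, other and Meis2 > Pax6 cells). With the replicate number as a block, 0 members were called in any class, Eda2r was -0.43 in cycling cells, and the counts over all genes were 0, 50, 53 and 58 instead of 1, 3, 3 and 25.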

Other observations

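Among the 18 genes of p53 and its regulators, Rpl5 and Rpl11, ribosomal proteins that bind and inhibit Mdm2 when ribosome assembly fails, were chosen here after their values were seen. Their log2 fold changes in En1/2 CKO against control Meis2 > Pax6 cells were 1.02 (standard error 0.24, adjusted p = 0.129) and 0.72 (standard error 0.24, adjusted p = 0.225, edgeR), and neither passed the test. The values were of similar size in Neurod1-positive cells (0.99 and 0.71) and in other Pax6 > Meis2 cells (0.94 and 0.62). They did not pass the test there either, so they were not particular to Meis2 > Pax6 cells. Ribosomal protein genes have near-identical processed copies, so that their counts are uncertain.

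Cdkn1a UMIs were clumped over Neurod1-positive cells. With each cell thinned to 3000 UMIs, the variance of Cdkn1a over its mean was 1.24 and 1.55 in the controls against 1.27 and 1.46 under CKO, where a random spread of UMIs gives a ratio near 1. That of Mdm2 was 0.970 and 0.965 in the controls against 0.999 and 0.959 under CKO. Between 4 and 13 cells per library held 2 or more Cdkn1a UMIs, of 141 to 724 cells.

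Cells with equal numbers of Pax6 and Meis2 UMIs, 226 to 648 per library, stood in no class and were not compared.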
